A study of Mus musculus with 8 samples.

Results

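Gene expression of 8 members of the dystrophin-glycoprotein complex was described in the left ventricles of 8 mice, out of 55487 gene identifiers counted and 14695 tested. The members are Dmd, Utrn, Dag1, Sgca, Sgcb, Sgcd, Dtna and Sspn, taken by symbol from a fixed list, and all 8 passed the filter on low counts. All animals were C57BL/6 mice aged 12 weeks. The 4 controls are labelled wild-type, and the 4 mice called KO here are labelled GPR116-/- (myocyte-specific), that is, lacking the adhesion G protein-coupled receptor ADGRF5 in cardiac muscle cells. Each group held 2 males (replicates 1 and 2) and 2 females (replicates 3 and 4). The promoter that drives the deletion, and whether the controls carry any transgene or modified allele, stay unstated in the labels. The members were selected on the KO against control values of these libraries, in which Dmd had passed the test, so every KO against control value of a member is a description without a test. The difference between the sexes, and the difference of the KO change between the sexes, were not used in that choice and were tested.

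The complex ties the actin cytoskeleton of a muscle cell to the basement membrane around it. Dystrophin binds actin inside the cell and the transmembrane protein dystroglycan at the membrane, and dystroglycan carries sugar chains that bind laminin outside. The sarcoglycans and sarcospan form a subcomplex beside dystroglycan that stabilises the link, and dystrobrevin and the syntrophins attach signalling proteins to its inner face. Loss of dystrophin or of a sarcoglycan leaves the membrane fragile during contraction and is known from muscular dystrophies with cardiomyopathy.

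Dmd counts pool transcripts from several starts. The annotation lists 14 Dmd transcripts on chromosome X, 3 of them coding: a full-length form of 3678 residues and 79 exons that begins at 82948903, and short forms of 617 and 604 residues that begin at 85048413. Of the exonic bases of the gene, 36.6% lie after the internal start at 85048295, where reads of long and short forms cannot be told apart. The 250 bases before each of the 2 RefSeq starts (GRCm38.p6) are shown because the values below are sums over both. The third window, before a Sgca start, is shown for the one member with a mean above control. Capitals mark a CArG box, the motif bound by serum response factor, or the GC box GGGCGG on either strand.
Dmd upstream start, chrX:82948620-82948869, plus strand: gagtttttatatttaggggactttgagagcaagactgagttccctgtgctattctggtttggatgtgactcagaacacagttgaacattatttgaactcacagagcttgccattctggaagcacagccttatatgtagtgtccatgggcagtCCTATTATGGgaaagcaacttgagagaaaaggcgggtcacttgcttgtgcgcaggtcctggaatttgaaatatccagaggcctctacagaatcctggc
Dmd internal start, chrX:85048045-85048294, plus strand: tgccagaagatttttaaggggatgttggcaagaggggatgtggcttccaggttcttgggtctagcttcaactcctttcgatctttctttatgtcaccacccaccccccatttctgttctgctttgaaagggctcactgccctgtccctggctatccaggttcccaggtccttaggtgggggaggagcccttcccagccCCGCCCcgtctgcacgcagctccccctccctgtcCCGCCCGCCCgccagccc
Sgca, chr11:94976328-94976577, minus strand: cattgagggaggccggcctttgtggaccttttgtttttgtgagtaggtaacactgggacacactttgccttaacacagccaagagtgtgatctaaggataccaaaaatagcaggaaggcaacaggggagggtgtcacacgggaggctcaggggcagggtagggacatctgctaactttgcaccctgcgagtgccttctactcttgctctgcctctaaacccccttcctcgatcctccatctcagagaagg
The upstream Dmd window held 1 CArG box, which 1.47% of the 32851 windows of the same length hold, and had a GC content of 45.2%. The internal window held 3 matches to GGGCGG, 2 of which overlap, a motif present in 32.7% of windows, and had a GC content of 60%. Neither motif matched in the Sgca window. These are matches of letters and were not tied to binding or to a transcript level.

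The libraries held 25.33 M to 39.62 M gene reads (M, the unit that CPM is counted in), and mitochondrially encoded genes took 17.4% to 21.9% of them. The ventricle was rich in cardiomyocyte transcripts, with all 9 markers measured and a summed level of 73691 to 86900 CPM (read counts divided by library size after TMM scaling) in controls and 77277 to 90864 CPM in KO. Adgrf5 itself ranged over 218.2 to 257.0 CPM among controls and over 203.0 to 239.8 CPM among KO libraries. Endothelial cells transcribe this gene too, so its ventricular level is no test of the labels, on which all directions depend. A lower value in bulk tissue can mean fewer cells of a type or less RNA per cell, which cannot be told apart.

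Dmd, which encodes dystrophin (chrX:82948870-85206141 on the plus strand, GRCm38), was lower in every KO library than in any control. It lay at 73.9, 76.5, 74.4 and 91.05 CPM in control replicates 1 to 4, and at 21.6, 29.5, 48.2 and 44.5 CPM in KO replicates 1 to 4. The groups did not overlap, and within KO both males stood below both females. The means were 79.0 ± 8.14 CPM (SD, n = 4) for control and 36.0 ± 12.5 CPM (SD, n = 4) for KO, so KO libraries held 45.6% of the control level (log2 fold change -1.19, SE 0.154). These values rest on 818 to 2633 reads per library. The coefficient of variation was 34.8% in KO and 10.3% in controls. Exons of Dmd share no base with those of an overlapping gene, and the 5 genes inside its span, Tsga8 on the opposite strand among them, had at most 3 reads in a library.

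**Figure D1:**
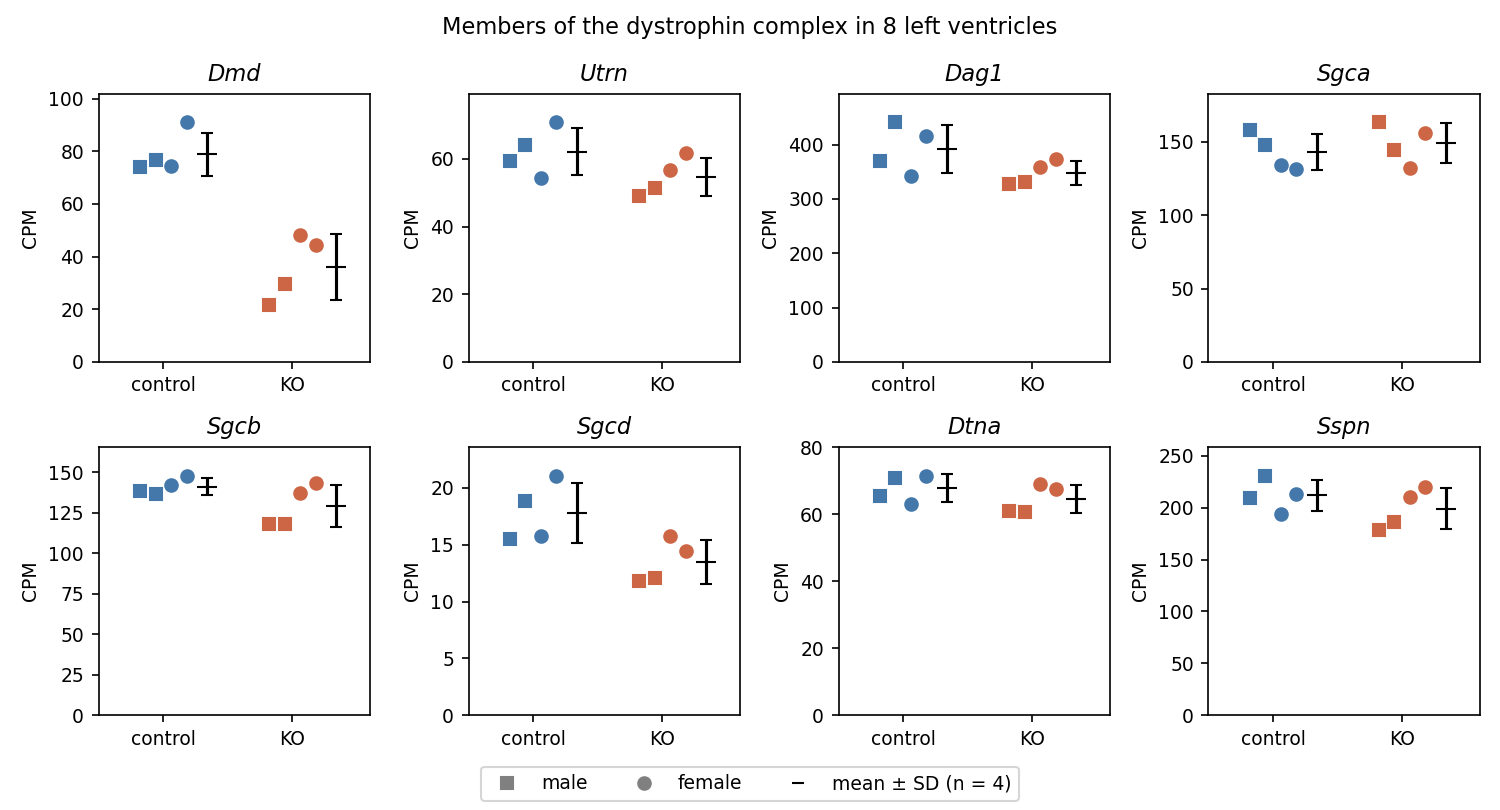
CPM of the 8 members (y axes from 0) in 4 control (blue) and 4 KO (orange) libraries, squares for males and circles for females, with the mean ± SD of each group in black. Dmd is the member whose groups do not overlap, with KO at 21.6 to 48.2 CPM and controls at 73.9 to 91.05 CPM.

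Utrn encodes utrophin, the close relative of dystrophin that can take its place at the membrane when dystrophin is missing (chr10:12382188-12869365, minus strand). Its mean was not higher in KO. Control replicates 1 to 4 lay at 59.3, 64.2, 54.4 and 70.8 CPM and KO replicates 1 to 4 at 49.0, 51.4, 56.7 and 61.7 CPM. The groups overlapped, and the mean was 88.0% of control (log2 fold change -0.19, SE 0.0920). The lowest value of all was that of KO replicate 1 and the highest that of control replicate 4.

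Dag1 encodes both subunits of dystroglycan, the receptor that dystrophin holds (chr9:108204634-108263958, minus strand). It lay at 370.1, 441.2, 343.0 and 415.2 CPM in controls and at 326.8, 330.4, 359.7 and 373.6 CPM in KO. The KO values lay inside or below the control range, at 88.6% of the control mean (log2 fold change -0.18, SE 0.0930, and -0.10 without control replicate 2). These values rest on 9552 to 12358 reads per library.

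Among the sarcoglycans, Sgcd, the δ-sarcoglycan that with β-sarcoglycan forms the core of the subcomplex (chr11:46896253-47988969, minus strand), had the largest difference after Dmd. It lay at 15.5, 18.8, 15.8 and 21.1 CPM in controls and at 11.8, 12.0, 15.8 and 14.4 CPM in KO, or 75.9% of control (log2 fold change -0.41, SE 0.113). Its groups touched, since the highest KO library, replicate 3, stood above control replicate 1. Sgcb, the β-sarcoglycan (chr5:73632749-73647790, minus strand), lay at 138.2, 136.7, 142.0 and 148.0 CPM in controls and at 118.3, 117.9, 137.2 and 143.5 CPM in KO (log2 fold change -0.13, SE 0.0638). Its male KO libraries were below all controls and its female ones within their range. Sgca, the α-sarcoglycan (chr11:94962791-94976327, minus strand), lay at 157.8, 148.2, 134.3 and 131.9 CPM in controls and at 163.4, 144.8, 132.2 and 155.9 CPM in KO. The groups overlapped throughout, and it was the only member with a positive log2 fold change (0.06, SE 0.0763). Leaving out 1 KO library gave 0.04 (replicate 1), 0.10 (replicate 2), 0.10 (replicate 3) or 0.0019 (replicate 4).

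Dtna, the α-dystrobrevin that joins syntrophins to the complex, and Sspn, the tetraspan protein sarcospan, differed least from control beside Sgca. Dtna (chr18:23415135-23659715, plus strand) lay at 65.3, 71.0, 63.2 and 71.6 CPM in controls and at 61.0, 60.7, 68.9 and 67.4 CPM in KO (log2 fold change -0.07, SE 0.0692). Sspn (chr6:145931641-145965223, plus strand) lay at 209.6, 231.0, 193.9 and 213.2 CPM in controls and at 178.5, 185.9, 210.5 and 220.1 CPM in KO (log2 fold change -0.10, SE 0.0870). Without control replicate 2 the log2 fold change was -0.03 for Dtna and -0.04 for Sspn, without control replicate 3 it was -0.13 and -0.16, and without KO replicate 1 that of Sspn was -0.05. For both genes the groups overlapped and the male KO libraries were the lowest of the 8. Both also share exonic bases with an opposite-strand gene (90 bases for Dtna, 69 for Sspn), but these antisense genes had at most 1 read and 19 reads per library, against 1740 or more for Dtna and 5375 or more for Sspn.

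Across the complex, 7 of 8 members had a log2 fold change below 0, as did 51% of all tested genes. The median was -0.15 over the members and -0.01 over all tested genes. By edgeR 1 of 8, Dmd, had an adjusted p under 0.05, a share of 0.102% among all tested genes (0.0544% for lower calls alone). The groups did not overlap for 1 of 8, against 6.25% of all genes (3.03% with KO lower). Nothing is read from these counts, because the members were chosen with the contrast known. The call of Dmd was lost in the edgeR fits that left out control library 1, control library 2 or any of KO libraries 2, 3 and 4 (adjusted p 0.0609 to 0.186), in which its log2 fold change still ran from -1.12 to -1.28. It was also lost in the fit without the sex term (-1.14, adjusted p = 0.135). These adjusted p-values describe the fits and are no test of Dmd.

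Levels between genes were compared per kb of exon, as CPM per kb averaged over the 8 libraries. Sgca was highest at 84.2 CPM per kb, followed by Dag1 at 58.2, Sspn at 41.1 and Sgcb at 33.4 CPM per kb. The large genes came far below, with Dtna at 3.91, Utrn at 3.42, Dmd at 2.41 and Sgcd at 1.90 CPM per kb. The ranges over libraries of Sgca and Dag1 did not overlap, nor did those of Dag1 and Sspn or of Sgcb and Dtna. Sspn and Sgcb overlapped, as did each neighbouring pair from Dtna down to Sgcd. In controls alone Dmd stood at 3.32 ± 0.342 CPM per kb and Utrn at 3.63 ± 0.410 CPM per kb, while in KO Dmd stood at 1.51 ± 0.527 and Sgcd at 1.64 ± 0.232 CPM per kb (SD, n = 4). These lengths are the union of all annotated exons, 23.8 kb for Dmd, and lower the value of genes with many alternative exons.

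The difference from control was larger in males than in females for 7 members, with Sgca the exception. No share over all tested genes stands beside this count, and most members varied together over the libraries (below), so nothing is read from it. In males the 2 KO libraries lay below the 2 controls for 7 of 8 members, an arrangement that 25.9% of all tested genes shared. In females it held for 2 of 8, Dmd and Sgcd, against 17.2% of genes. Dmd means were 75.2 CPM in control males and 25.6 CPM in KO males (log2 fold change -1.56, SE 0.151). In females they were 82.7 CPM in controls and 46.4 CPM in KO (log2 fold change -0.83, SE 0.148). Sspn stood at 82.7% of control in males and at 105.8% in females, with log2 fold changes of -0.27 (SE 0.0960) and 0.08 (SE 0.0959). Library numbers in the labels place both male KO libraries before both male controls, while female KO libraries lie on both sides of the female controls, so in males genotype and anything that followed this order cannot be told apart.

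**Figure D2:**
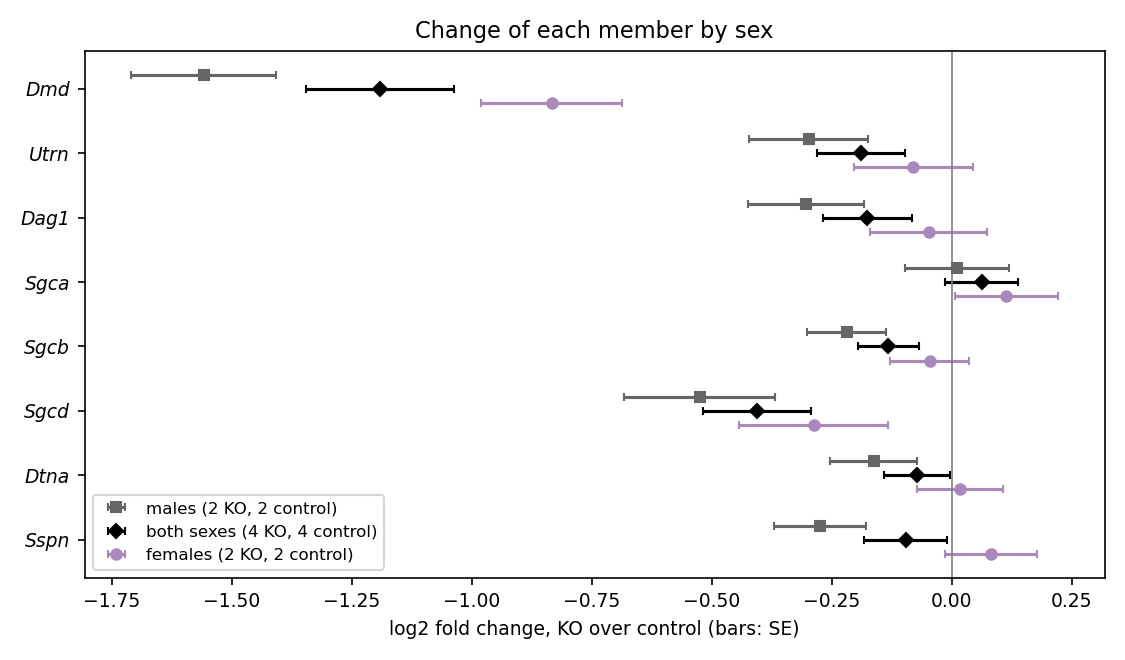
Log2 fold change of KO over control (x axis) for each member in males, in females and in both sexes, with bars for the SE. The male value lies left of the female one for all 8 members, from -1.56 against -0.83 for Dmd to 0.01 against 0.11 for Sgca.

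The difference between the sexes in the KO change was tested directly over all 14695 genes. By edgeR 0 of 8 members passed, as did 0% of all genes, and by DESeq2 0 of 8. At an unadjusted p under 0.05 there were 2 of 8, Dmd and Sspn, against 7.46% of genes. For Dmd the log2 fold change in males minus that in females was -0.73, with a 95% interval of -1.20 to -0.25 (unadjusted p = 0.00681, edgeR adjusted p = 0.648). For Sspn it was -0.36, with an interval of -0.66 to -0.05 (unadjusted p = 0.0273, edgeR adjusted p = 0.648). The intervals of the other 6 members included 0, the widest being that of Sgcd at -0.73 to 0.26. In the edgeR fit without a filter on low counts 1 of 8 passed, Dmd (-0.74, adjusted p = 0.00263), so the call depends on the fit. In KO against control that fit gave Dmd and Sgcb nearly equal SEs (0.0905 and 0.0874), against 0.154 and 0.0638 in the main fit. P-values of the unfiltered fit thus follow the spread of each gene less closely and are read as descriptions. That fit called 243 of 27953 genes. Intervals of this width do not show that the sexes responded alike.

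Males and females were then compared across both genotypes. Library numbers in the labels place all 4 males before all 4 females. Mitochondrially encoded genes took 19.6% to 21.9% of gene reads in males and 17.4% to 18.3% in females. Multiply mapped reads were 18.8% to 20.3% of all tallied reads in males and 16.8% to 17.9% in females. In any comparison of males with females, sex and anything that followed this order thus cannot be told apart. By edgeR 0 of 8 members passed, against 0.299% of all genes, and by DESeq2 0 of 8. In the edgeR fit without a filter on low counts 1 of 8 passed, Dmd (adjusted p = 6.06e-06). As said above, p-values of that fit follow the spread of each gene less closely, so this value is a description. That fit called 742 of 27953 genes. At an unadjusted p under 0.05 there were 2 of 8, Dmd and Sgcb, against 12.8% of genes. Dmd, an X-linked gene, was at 50.4 ± 28.9 CPM in males and 64.6 ± 22.1 CPM in females (SD, n = 4 each), with a log2 difference of -0.49, males minus females (SE 0.153, unadjusted p = 0.00901, edgeR adjusted p = 0.245). Among controls alone the males, at 73.9 and 76.5 CPM, stood on either side of female replicate 3 at 74.4 CPM, while in KO both males stood below both females. Sgcb was at 127.8 ± 11.2 CPM in males and 142.7 ± 4.44 CPM in females (log2 difference -0.16, SE 0.0638, edgeR adjusted p = 0.334).

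Library by library, 7 of the members had similar profiles and Sgca did not. Pearson's r of log2 CPM over the 8 libraries ranged from 0.64 to 0.91 for the 21 pairs without Sgca, with a median of 0.85. For the 7 pairs with Sgca it ranged from -0.55 to -0.17. With the means of genotype and sex removed, the 21 pairs ranged from 0.49 to 0.96 and the 7 pairs with Sgca from -0.25 to 0.52. Over all 8 libraries r with Dmd was highest for Sgcd (0.91) and Sgcb (0.86), a value that contains the difference between the groups. With the means removed it was highest for Sspn (0.86), and Sgcd was the lowest of the 6 (0.65). The points share their library, its depth and its RNA composition, and 8 libraries are few, so these values are descriptions.

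**Figure D3:**
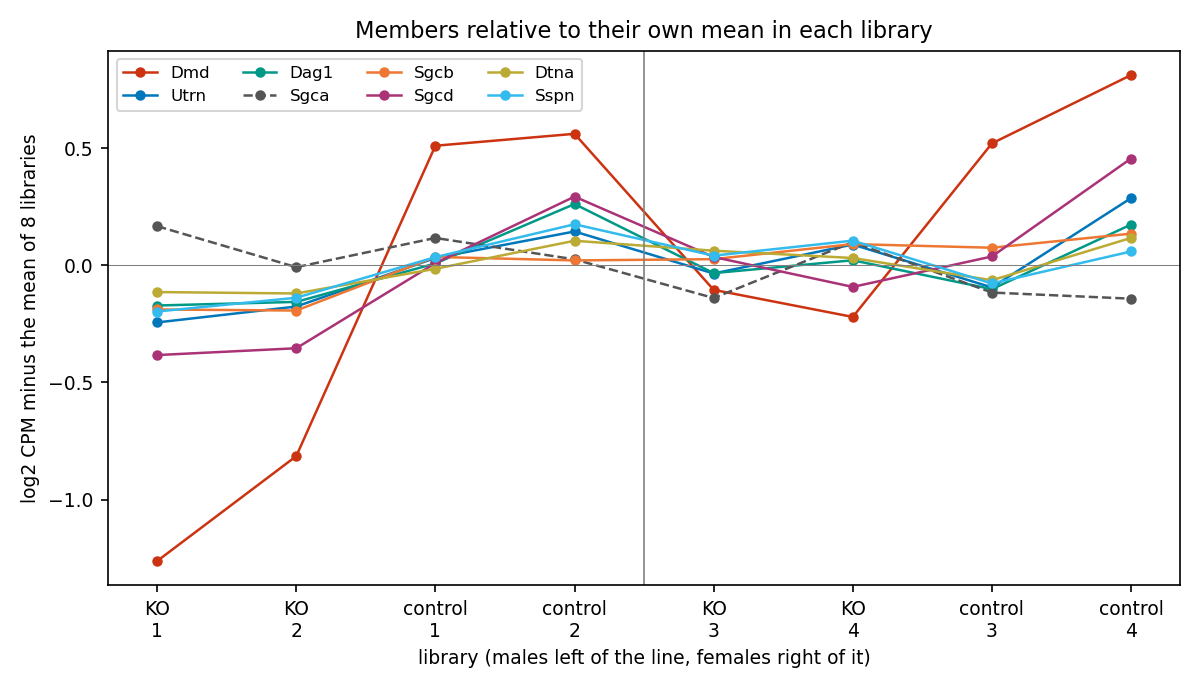
Log2 CPM of each member minus its own mean over 8 libraries (y axis), by library (x axis), with males left of the vertical line and females right of it. In KO replicates 1 and 2 the 7 members other than Sgca (dashed) lie well below their mean, Sgca lies above its mean in KO replicate 1 and near it in KO replicate 2, and Dmd spans the widest range.

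The genes most like Dmd over the 8 libraries, among named genes with a mean of at least 1 CPM, were Ctnna3, an α-catenin found where heart muscle cells join (r = 0.98), Msrb3, a methionine sulfoxide reductase (r = 0.97), Inpp4b, a phosphoinositide phosphatase (r = 0.97), the zinc finger gene Zfp81 (r = 0.97) and Ube2b, a ubiquitin-conjugating enzyme (r = 0.96). Their log2 fold changes ran from -0.13 (Ube2b) to -0.93 (Ctnna3). They span 15.3 kb (Ube2b) to 1573.6 kb (Ctnna3), and the part of span in their likeness to Dmd was not tested.

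Genomic span, from the first to the last annotated base, went along with the difference between the groups. Among tested genes with a mean of at least 1 CPM, those under 20 kb had a median log2 fold change of 0.06 and those over 500 kb of -0.16, of which 90 of 108 were below 0. Dmd (2257.3 kb) and Sgcd (1092.7 kb) belong to the last class, Utrn (487.2 kb) and Dtna (244.6 kb) to the one below it, and Sgca (13.5 kb) and Sgcb (15 kb) to the shortest. Sgca and its class median were both 0.06, while Dtna differed from its class by 0.03, Sgcd by -0.24 and Dmd by -1.03. Sgcb, as short as Sgca, differed from the same class median by -0.19, and Dag1 (-0.10), Utrn (-0.09) and Sspn (-0.08) also lay below their classes. Dmd ranked 2 from the lowest among the 108 longest genes. Among genes of like span, Ptprd (2270.7 kb) had a log2 fold change of -0.12 (SE 0.136) and Lsamp (2197.3 kb) of -0.07 (SE 0.182). Next by span came Macrod2 (1997.7 kb, -0.16), Dlg2 (1972.6 kb, -0.12), Ctnna3 (1573.6 kb, -0.93), Rbfox1 (1526.2 kb, -0.51) and Pde4d (1503.5 kb, -0.19). The part of span in the members' values was not tested.

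**Figure D4:**
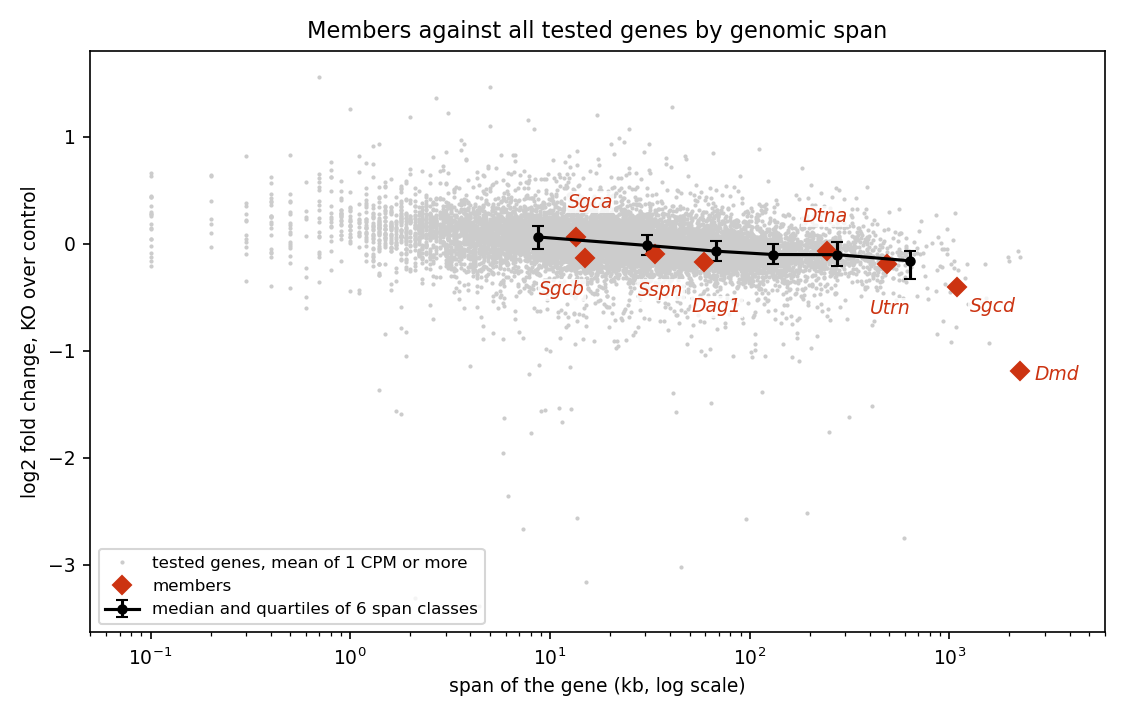
Log2 fold change of KO over control (y axis) against the span of the gene in kb (x axis, log scale) for tested genes with a mean of at least 1 CPM (grey), with the median and quartiles of 6 span classes (black) and the 8 members (red). The class medians fall from 0.06 under 20 kb to -0.16 over 500 kb, and Dmd lies at -1.19.

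Markers of other cell types were measured beside these values. Endothelial markers had log2 fold changes below 0 in 7 of 8, against 51% of all tested genes. At an unadjusted p under 0.05, 4 were lower, against 908 of all 14695 tested genes. Groups did not overlap for 3 (Pecam1, Emcn and Vwf), all lower in KO, against 3.03% of all tested genes. The summed level of endothelial markers was 883 to 1072 CPM in controls and 836 to 933 CPM in KO. Utrophin is also made in vessels, and the part of endothelial content in the values of Utrn was not tested. Atrial markers had 6 of 7 log2 fold changes below 0, against 51% of all tested genes. Of these, 2 were lower at an unadjusted p under 0.05, against 908 of all 14695 tested genes. The atrial sum was 415 to 6059.9 CPM in controls and 405 to 1477 CPM in KO. In KO replicate 1 it was mostly Nppa (864 of 919 CPM). Myl7 stood at 0.264 CPM there and at 983 CPM in control replicate 4. Control replicates 3 and 4, with atrial sums of 434 and 6059.9 CPM, had Dmd levels of 74.4 and 91.05 CPM. Sums of fibroblast (1042 to 1139 and 932 to 1199 CPM), smooth muscle and pericyte (1223 to 1345 and 1182 to 1267 CPM), macrophage (281 to 378 and 260 to 442 CPM) and Schwann cell markers (12.5 to 29.7 and 17.3 to 19.2 CPM) overlapped between controls and KO. Skeletal muscle markers summed to 2727 to 3524 CPM in controls and 2961 to 4412 CPM in KO. Log2 fold changes were above 0 for 5 of the 5 tested markers, against 7204 of all 14695 tested genes. At an unadjusted p under 0.05, 3 were higher, against 848 of 14695. These 3, Tnnt3, Tnni2 and Mylpf, had group means of only 0.688 to 3.15 CPM. Ckm and Acta1, which the heart also makes, had the means of 2686 and 715 CPM, and Myh4 had no read in any library. The part of these cell types in the members' values was not tested.

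The wider pathway was followed in 6 lists of 94 genes, of which 81 could be tested. The lists were chosen with earlier results of these data known, so their KO against control p-values are descriptions. By edgeR 0 of the 81 passed in KO against control, while 11 were lower and 6 higher at an unadjusted p under 0.05. The share of all tested genes at that unadjusted threshold was 11.9%, with 908 lower and 848 higher of 14695. The same counts over all genes apply beside each list below. DESeq2 called 1, Rbfox1, and edgeR without a filter on low counts called 2, Sntb1 and Rbfox1. Over all genes these fits called 148 of 14695 and 621 of 27953. The median log2 fold change of the 81 genes was -0.00, and that of all tested genes -0.01. For the difference between the sexes in the KO change edgeR called 0 of 81, with 7 at an unadjusted p under 0.05 (7.46% of all tested genes). DESeq2 called 0 (3 genes had no adjusted p). For males against females edgeR called 0 of 81, with 12 at an unadjusted p under 0.05 (12.8% of all tested genes). DESeq2 called 3, Lama4, Itgb1bp2 and Anxa2, against 232 of all 14695 genes. Without the filter edgeR called 1, Anxa2, against 742 of 27953.

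Other proteins of the complex, and genes listed with them, gave a median of 0.02 over 14 tested genes. By edgeR 0 passed the adjusted threshold, and 1 was lower and 3 higher at an unadjusted p under 0.05. Sntb1, a syntrophin, lay at 4.54, 5.43, 5.06 and 4.43 CPM in controls and at 7.46, 6.85, 7.44 and 6.12 CPM in KO. Its groups did not overlap (log2 fold change 0.52, SE 0.121, edgeR adjusted p = 0.197), and in the edgeR fit without a filter on low counts it passed (adjusted p = 0.0244). Cav3, the caveolin of muscle membranes, was at 56.3 ± 5.53 CPM in control and 65.0 ± 2.20 CPM in KO libraries (edgeR adjusted p = 0.352), and its groups did not overlap either. Mlf1 had a log2 fold change of 0.25 (SE 0.0972).

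Enzymes that build the laminin-binding sugar of dystroglycan gave a median of 0.02 over 16 tested genes, and 3 were lower and 0 higher at an unadjusted p under 0.05. B3galnt2, a glycosyltransferase of this pathway, was at 27.4 ± 2.52 CPM in control and 22.9 ± 2.67 CPM in KO libraries (SD, n = 4 each). Its groups overlapped (log2 fold change -0.26, SE 0.0695, edgeR adjusted p = 0.231).

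Matrix ligands gave a median of -0.10 over 13 tested genes, with 3 lower and 0 higher at an unadjusted p under 0.05. Lama2, the laminin α2 chain of the muscle basement membrane, lay at 103.8, 101.3, 93.3 and 95.6 CPM in controls and at 79.9, 79.5, 89.0 and 90.9 CPM in KO. Its groups did not overlap (log2 fold change -0.22, SE 0.0714, edgeR adjusted p = 0.335), and it spans 639.7 kb. Lama4, a laminin chain of vessels, stood at -0.18 (SE 0.0710) and Lamc3 at -0.65 (SE 0.283) with a mean near 1 CPM.

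Genes of the costamere and of the parallel integrin link gave a median of -0.00 over 19 tested genes, with 1 lower and 2 higher at an unadjusted p under 0.05. Des, the intermediate filament protein desmin, was at 2463 ± 200.2 CPM in control and 2861 ± 150.4 CPM in KO libraries without overlap (log2 fold change 0.22, SE 0.0682, edgeR adjusted p = 0.309). Itgb1bp2, the chaperone melusin, stood at 0.18 (SE 0.0643) and Lims1, an adaptor of integrin-linked kinase, at -0.20 (SE 0.0789). Of the listed genes of the nerve-muscle synapse only 4 of 8 could be tested. Dok7 (0.19, SE 0.0716), Rapsn (0.23, SE 0.109) and Chrnb1 (-0.16, SE 0.147) had the smallest p of these.

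Transcription and splicing factors that act on muscle genes gave a median of -0.16 over 15 tested genes, with 3 lower and 0 higher at an unadjusted p under 0.05. Rbfox1, a splicing factor of heart and brain, was at 26.4 ± 4.56 CPM in control and 18.5 ± 1.94 CPM in KO libraries without overlap (log2 fold change -0.51, SE 0.127, edgeR adjusted p = 0.213, DESeq2 adjusted p = 0.0242). It is also one of the longest genes measured, at 1526.2 kb. Gabpa, the factor known to drive the utrophin promoter, stood at -0.30 (SE 0.0978) and Mef2c, a regulator of muscle genes, at -0.26 (SE 0.0954).

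Some of these values moved by over 1.5 times when 1 library was left out. Cav3 was at 0.13 without control replicate 2, Mlf1 at 0.15 without KO replicate 4, Lamc3 at -0.41 without control replicate 4 and Rapsn at 0.15 without KO replicate 1. Chrnb1 was at -0.01 without control replicate 3 and -0.08 without KO replicate 3.

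**Figure D5:**
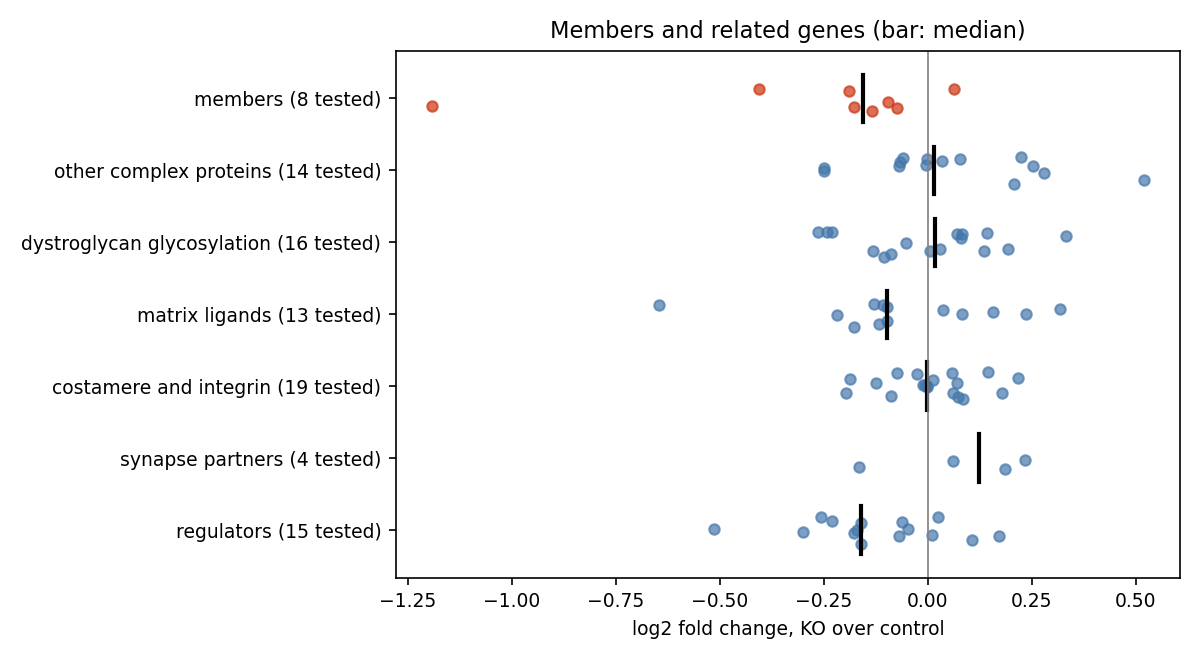
Log2 fold change of KO over control (x axis) for the members (red) and for the tested genes of 6 related lists (blue), 1 point per gene, with a bar at each median. List medians run from -0.16 for the regulators to 0.12 for the synapse partners, and Dmd at -1.19 lies outside the range of all 81 related genes.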

How the data were processed

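RNA-seq libraries of left ventricle from 4 control and 4 KO mice were analysed. Per the labels' protocols they were stranded mRNA libraries. The authors deposited raw read counts per Ensembl gene; the submitters' processing notes name STAR, HTSeq, DESeq2 and build GRCm38. Versions, annotation release and strand setting: not given in the sources used here. Multiply mapped reads were 16.8% to 20.3% of all tallied reads and were left out with the other summary entries. Symbols, spans and exon lengths came from GENCODE M21, which names 55227 of 55487 identifiers, and promoter windows from RefSeq (GRCm38.p6, 7 members matched).

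Counts were fitted in R 4.3.3 with edgeR 4.0.16: filterByExpr by genotype, TMM factors, quasi-likelihood tests with sex as an additive term, and a second fit of the 4 sex and genotype groups. P-values of each fit were adjusted over the genes it tested by the Benjamini-Hochberg method (threshold 0.05). These were 14695 in the main fits, 27953 without a filter on low counts and 14848 to 14925 with 1 library left out. DESeq2 gave some genes no adjusted p. Likeness to Dmd used log2 CPM with a prior count of 2. Named genes were all members, the 3 related genes per list with the smallest p besides any that passed, and the 5 genes most like Dmd. Some named genes are not reported here. Fits were tested on simulated data. Alternatives comprised DESeq2 1.42.0, limma 3.58.1 (voom), 2 other scalings, 2 other filters, a fit without sex, a replicate block, removal of mitochondrial genes and each library left out. The design text calls the samples biological replicates, so p-values measure the spread between these animals, and replicates within a group differed beyond sampling noise. In the edgeR fit without a filter on low counts the p-values follow the spread of each gene less closely. The members and lists were chosen with earlier results of these data known. A count of 0 allows up to 0.0757 to 0.118 CPM (3 counts per library, counting error only).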

Additional observations from a re-analysis of the deposited data

Results flagged for a closer look

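Among the 16 groups of 4 libraries formed by 8 members and 2 genotypes, 1 held a library far from the others. Dmd in control replicate 4 stood at 91.05 CPM, and the gap to the next control took up 0.846 of the range of the group, above the 95% limit of Dixon's test for 4 values. Chance flags about 1 in 20 such groups. The same library had the highest atrial marker sum. Without it the log2 fold change of Dmd was -1.22 (SE 0.176), and over all alternatives the log2 fold change ran from -1.33 to -1.03.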

How the results depend on the processing

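In KO against control edgeR called 15 genes, DESeq2 148, the fit without a filter on low counts 621 and the fit without sex 6. Leaving out 1 library gave 0 to 50 calls: 0 in the absence of control library 1, control library 2, KO library 2 or KO library 3, 4 without KO replicate 1 or 4, 20 without control replicate 4 and 50 without control replicate 3. Of the 8 members 1 was called, against 2 without the filter (Dmd and Sgcd), 0 without the sex term and 0 to 1 with a library left out. The replicate block gave 0 genes and 0 members (Dmd -1.20, adjusted p 0.0683). Same-numbered samples deviated from their group means with correlations of 0.335, 0.191, -0.213 and 0.122, and 2 of 4 numbers correlated best with their own, so the numbers were not taken to pair the samples. For the interaction edgeR called 0 genes, DESeq2 15, the fit without a filter 243, and leaving out 1 library 0 to 8. For males against females the counts were 44, 232, 742 and 16 to 176, the highest without control replicate 3. Where a sex and genotype was left with 1 library, that library was assumed to vary like the other groups. The cause of these moves was not tested. Dmd stayed between -1.33 and -1.03 in all 17 alternatives and was called in 10, and no member changed sign in KO against control. Calls of members in this contrast are descriptions, because the members were chosen with it known. With 1 library left out, the interaction of Sgca ran from -0.22 to 0.020 and the male minus female difference of Dag1 from -0.11 to 0.0063, both above 0 without KO replicate 4. Sgcd, with 348 to 610 reads per library, was the least deeply counted member.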
